A study of Mus musculus with 2 samples.

Results

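The 10 genes Ctsk, Acp5, Dcstamp, Ocstamp, Nfatc1, Tnfrsf11a, Oscar, Atp6v0d2, Calcr and Itgb3 are associated with osteoclasts, the bone-resorbing cells that form by fusion of macrophage precursors. They were found by symbol among the 34745 gene identifiers of an RNA sequencing table, and all 10 matched 1 identifier each. The set was chosen by function with the levels and log2 ratios of this same comparison already known, so what follows describes those values and tests nothing. The cells of interest were primary bone marrow-derived macrophages of C57BL/6 mice transfected with AclyE14-ASO, an antisense oligonucleotide (ASO) named for Acly. The cells they were set against received Control-ASO, and both cultures were treated with LPS, a bacterial endotoxin that macrophages sense through TLR4. Each condition was 1 library, so no p-value is given, no difference has a replicate check, and culture-to-culture variation is part of every difference. The labels name no LPS dose or duration and no osteoclast-forming cytokine.

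Osteoclasts form when the cytokine RANKL binds its receptor RANK on macrophage precursors in the presence of M-CSF. RANK signals through TRAF6, NF-kB and AP-1 to the transcription factor NFATc1, which is amplified by calcium signals from immunoreceptors and switches on fusion proteins and then the enzymes that dissolve bone. Toll-like receptor ligands given to precursors before RANKL are known to hold back this programme, and several of its late products, cathepsin K and tartrate-resistant acid phosphatase among them, are also made by macrophages.

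The AclyE14-ASO library held 12751076 gene counts and the Control-ASO library 14215397. Levels are given in FPKM, counts scaled to gene length and library total. Log2 ratios set AclyE14-ASO over Control-ASO after 1 was added to each FPKM. A gene was called higher or lower at 1.5-fold or more on that scale if its mean over both libraries reached 1 FPKM, which 8658 genes did. Intervals are exact 95% intervals for counting error only, and reads that carry no molecular identifier need not be separate molecules. Acly, which encodes ATP-citrate lyase, had 7.35 FPKM in the AclyE14-ASO library and 13.3 FPKM in the Control-ASO library, a count ratio of 0.553 (0.506 to 0.603). The median log2 ratio over expressed genes was -0.13, and each ratio can also be read against that shift.

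The most abundant members differed in opposite directions. Ctsk was 68.2% lower by counts with AclyE14-ASO and Acp5 was 2.36 times as high, while Atp6v0d2 differed by 3.8% in the lower direction. Itgb3, at a low level, was lower too. Means over both libraries were 704 FPKM for Ctsk, 245 FPKM for Acp5 and 208 FPKM for Atp6v0d2. Of the 7 members that reached the 1 FPKM mean, 1 was called higher, 2 were called lower and 4 lay between, and the other 3 members, Ocstamp, Oscar and Calcr, had 3 counts or fewer in each library. Among all expressed genes 7.03% were called higher and 8.48% lower, 15.5% in all. At 2-fold or more Acp5 alone was higher and Ctsk alone lower among the members, beside 3.18% of expressed genes higher and 1.55% lower, 4.72% in all. When log2 ratios were centred on the median gene, the members called were 1 higher and 1 lower, and the shares over all expressed genes were 9.83% higher and 4.69% lower.

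**Figure D1:**
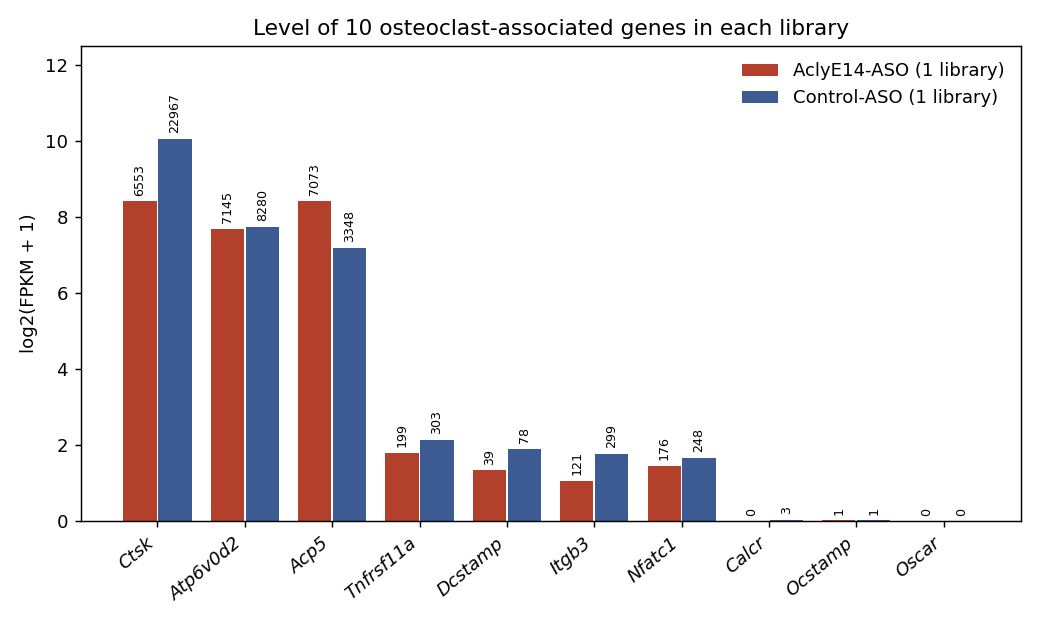
Level of each member as log2(FPKM + 1), with AclyE14-ASO in the left bar and Control-ASO in the right bar of each pair, 1 library each, and raw counts printed above the bars. Ctsk, Atp6v0d2 and Acp5 stand far above the other members, with 6553 against 22967 counts for Ctsk and 7073 against 3348 counts for Acp5.

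Ctsk encodes cathepsin K, the cysteine protease that digests type I collagen in the resorption pit. It lies on chromosome 3 (ENSMUSG00000028111, 95499256 to 95509362, plus strand, GRCm38) and its exons overlap no other annotated gene. Its level was 340 FPKM from 6553 counts in the AclyE14-ASO library and 1069 FPKM from 22967 counts in the Control-ASO library. It was the 143rd most abundant gene of the table with AclyE14-ASO and the 39th with Control-ASO. The count ratio was 0.318 (0.309 to 0.327) and the log2 ratio -1.65. A lower log2 ratio was found for 0.266% of expressed genes, and for 1 of the 458 genes whose mean reached 100 FPKM.

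Acp5 encodes tartrate-resistant acid phosphatase, the enzyme whose stain identifies osteoclasts. It lies on chromosome 9 (ENSMUSG00000001348, 22126727 to 22135711, minus strand). Its level was 344 FPKM from 7073 counts with AclyE14-ASO and 146 FPKM from 3348 counts with Control-ASO. The count ratio was 2.36 (2.26 to 2.46) and the log2 ratio 1.23, above that of 98% of expressed genes. Of the 458 abundant genes 8 had a higher log2 ratio. In the annotation 137 nt of its exons are shared with the noncoding gene 6530413G14Rik on the opposite strand, which was not analysed here.

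On the deposited FPKM, cathepsin K and acid phosphatase transcripts stood at nearly the same level with AclyE14-ASO and far apart with Control-ASO. The ratio of Acp5 to Ctsk in FPKM was 1.01 within the AclyE14-ASO library and 0.137 within the Control-ASO library. The change of this ratio between the libraries was 7.40-fold (exact conditional interval 7.05 to 7.78), a value that no scaling of the libraries alters. The intervals of the levels overlapped with AclyE14-ASO, at 336 to 352 FPKM for Acp5 and 332 to 348 FPKM for Ctsk. With Control-ASO they were 141 to 151 FPKM for Acp5 and 1055 to 1082 FPKM for Ctsk. The overlap rests on the length of 1612 nt behind the deposited Acp5 values. At the annotated 2030 nt, an alternative added after seeing the data, Acp5 would be at 273 FPKM (267 to 280) with AclyE14-ASO, below Ctsk, and at 116 FPKM with Control-ASO, and the 7.40-fold change of the ratio stays as it is.

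Atp6v0d2 encodes the d2 subunit of the membrane sector of the vacuolar proton pump, which osteoclasts use to acidify bone and which is linked to fusion of their precursors. It lies on chromosome 4 (19876841 to 19922605, minus strand). Its level was 204 FPKM from 7145 counts with AclyE14-ASO and 213 FPKM from 8280 counts with Control-ASO. The count ratio was 0.962 (0.932 to 0.993) and the log2 ratio -0.06, which became positive, at 0.073, after centring on the median gene and at 0.046 when FPKM were rescaled by TMM factors (trimmed means of log ratios). Relative to Atp6v0d2, Ctsk was at 1.66 in the AclyE14-ASO library and 5.03 in the Control-ASO library, and Acp5 at 1.68 and 0.688 in the same order of libraries.

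These 3 genes made up 99.2% of the summed FPKM of the 10 members with AclyE14-ASO and 99.3% with Control-ASO. The sum was 895 FPKM with AclyE14-ASO and 1438 FPKM with Control-ASO. Ctsk alone gave 38% of it with AclyE14-ASO and 74.3% with Control-ASO, and Acp5 gave 38.4% and 10.2% in those libraries.

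**Figure D2:**
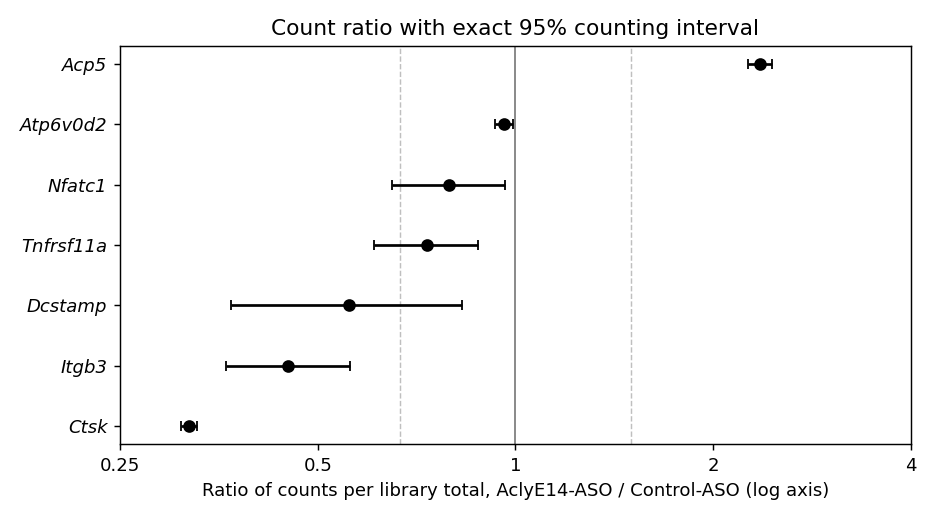
Ratio of counts per library total, AclyE14-ASO over Control-ASO, on a log axis for the 7 members with more than 3 counts in a library, with exact 95% counting intervals as bars, a solid line at 1 and dashed lines at 1.5-fold in each direction. Ctsk at 0.318 and Acp5 at 2.36 lie on opposite sides with narrow intervals, and the intervals of Dcstamp, Nfatc1 and Tnfrsf11a span the lower dashed line.

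The start regions of both diverging genes are printed here, since both are described as targets of NFATc1. RefSeq windows of 300 bases, from 250 before to 50 after a start (GRCm38.p6), were found for 5 of the 10 members. Ctsk has 1 window and Acp5 has 3. The gene-level counts do not tell which Acp5 start was used. Capitals mark the core of NFAT sites, GGAAA or its reverse complement TTTCC.
Ctsk, chr3:95498960-95499259, plus strand: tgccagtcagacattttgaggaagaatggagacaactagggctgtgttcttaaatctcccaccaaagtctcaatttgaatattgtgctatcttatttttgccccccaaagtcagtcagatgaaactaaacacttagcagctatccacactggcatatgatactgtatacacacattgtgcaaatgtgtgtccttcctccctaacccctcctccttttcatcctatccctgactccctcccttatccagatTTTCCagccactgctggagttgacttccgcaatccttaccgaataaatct
Acp5, chr9:22135697-22135996, minus strand: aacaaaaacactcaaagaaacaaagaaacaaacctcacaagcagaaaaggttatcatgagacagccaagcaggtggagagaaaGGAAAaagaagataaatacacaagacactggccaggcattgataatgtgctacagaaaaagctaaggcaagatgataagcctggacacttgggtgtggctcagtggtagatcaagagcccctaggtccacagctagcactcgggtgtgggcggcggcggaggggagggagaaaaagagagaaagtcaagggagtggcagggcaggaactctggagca
Acp5, chr9:22131816-22132115, minus strand: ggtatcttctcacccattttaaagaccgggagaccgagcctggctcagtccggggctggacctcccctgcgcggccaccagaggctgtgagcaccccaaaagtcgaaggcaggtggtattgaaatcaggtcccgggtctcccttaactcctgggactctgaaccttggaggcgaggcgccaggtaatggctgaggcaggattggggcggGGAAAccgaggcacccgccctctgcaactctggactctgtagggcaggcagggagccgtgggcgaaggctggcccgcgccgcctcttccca
Acp5, chr9:22130549-22130848, minus strand: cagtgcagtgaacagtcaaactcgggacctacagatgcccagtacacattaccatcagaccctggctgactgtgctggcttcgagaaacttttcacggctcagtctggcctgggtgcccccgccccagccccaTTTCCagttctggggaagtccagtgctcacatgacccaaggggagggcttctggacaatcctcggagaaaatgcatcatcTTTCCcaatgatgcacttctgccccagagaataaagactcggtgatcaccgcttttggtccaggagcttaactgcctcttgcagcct
Positions are counted from the RefSeq starts, and that of Ctsk lies before the gene start of 95499256 given above. The core occurred 1 time in the Ctsk window, on the reverse strand and beginning at the first base after that RefSeq start point. In the Acp5 windows it occurred 1 time each in the first and the second, at -167 and -41, and 2 times in the third, at -117 and -37. On either strand it is present in 61.3% of 32851 such windows, so its presence says little. Of the other motifs searched on both strands, the PU.1 core GAGGAA, which can overlap the NFAT core in GAGGAAA, was found 2 times in the Ctsk window and in none of the Acp5 windows, and 28.3% of all windows hold it. The E-box CATGTG of MITF was found in the third Acp5 window (14.2% of all windows) and GGGACT, the first part of an NF-kB site, in the second (18.7%). Neither the AP-1 site TGACTCA (5.2%) nor the E-box CACGTG (7.15%) was found in the windows of either gene. Such matches are descriptions of the letters and not evidence of binding.

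The receptor and the master transcription factor of the programme were present at low levels in both libraries. Tnfrsf11a, which encodes RANK, had 2.49 FPKM from 199 counts with AclyE14-ASO and 3.40 FPKM from 303 counts with Control-ASO. Its count ratio was 0.732 (0.609 to 0.879), and the log2 ratio of -0.33 lay within 1.5-fold. Nfatc1 had 1.74 FPKM from 176 counts with AclyE14-ASO and 2.19 FPKM from 248 counts with Control-ASO. That ratio was 0.791 (0.649 to 0.964), with a log2 ratio of -0.22, above that of 38.1% of expressed genes. Both count-ratio intervals lie below 1 and hold a 1.5-fold change in counts. The calls use FPKM + 1, a scale those intervals do not cover, so they do not settle how counting error bears on the calls.

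Itgb3 encodes integrin beta 3, which pairs with integrin alpha V to anchor osteoclasts to bone. It had 1.10 FPKM from 121 counts with AclyE14-ASO and 2.44 FPKM from 299 counts with Control-ASO, a count ratio of 0.451 (0.362 to 0.559). The log2 ratio of -0.71 passed the 1.5-fold limit, but not with a pseudocount of 5 (-0.29) or when centred on the median gene (-0.58). Its partner Itgav, at 10.4 FPKM with AclyE14-ASO and 6.998 FPKM with Control-ASO, had a log2 ratio of 0.51 and was chosen for mention after its value was seen.

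Transcripts of the fusion protein genes Dcstamp and Ocstamp were scarce. Dcstamp, which encodes the transmembrane protein DC-STAMP needed for osteoclasts to become multinucleate, had 1.53 FPKM from 39 counts with AclyE14-ASO and 2.75 FPKM from 78 counts with Control-ASO. The count ratio was 0.557 (0.369 to 0.829), an interval that holds a 1.5-fold change in counts. On FPKM + 1 the log2 ratio of -0.57 stood just inside the 1.5-fold limit. With a pseudocount of 0.1 it was -0.80, past the limit. Ocstamp, a related fusion protein gene, had 1 count in each library, so no ratio is given.

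Oscar and Calcr were at the limit of detection. Oscar, the osteoclast-associated receptor that signals through the FcR gamma chain, had 0 counts in both libraries. A count of 0 allows up to 3 counts, or 0.235 CPM (counts scaled to the library total) with AclyE14-ASO and 0.211 CPM with Control-ASO. Calcr, the calcitonin receptor that marks mature osteoclasts, had 0 counts with AclyE14-ASO and 3 counts with Control-ASO. Differences in these genes were not detectable at this depth. A list of 9 late osteoclast markers was made of 7 members with Mmp9 and Car2. It had 6 genes that reached a mean of 1 FPKM, of which 2 were higher and 2 lower. The shares over all expressed genes were 7.03% higher and 8.48% lower. Acp5 and Mmp9 were the higher genes and Ctsk and Car2 the lower, so Acp5 and Ctsk are counted among the members too.

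The order of the levels differed between the libraries. On the deposited FPKM it ran, with AclyE14-ASO, Acp5, Ctsk, Atp6v0d2, Tnfrsf11a, Nfatc1, Dcstamp, Itgb3 and Ocstamp, with Oscar and Calcr at 0. With Control-ASO it ran Ctsk, Atp6v0d2, Acp5, Tnfrsf11a, Dcstamp, Itgb3, Nfatc1, Calcr, Ocstamp and Oscar. Among the low members, the counting intervals of Nfatc1, 1.49 to 2.01 FPKM, and Dcstamp, 1.09 to 2.10 FPKM, overlapped with AclyE14-ASO, as did those of Dcstamp and Itgb3. With Control-ASO each of Tnfrsf11a, Dcstamp, Itgb3 and Nfatc1 overlapped its neighbour in that order. The interval of Tnfrsf11a, 3.03 to 3.81 FPKM, lay above those of Itgb3, 2.17 to 2.73 FPKM, and Nfatc1, 1.93 to 2.49 FPKM. These orders rest on the gene lengths behind the deposited FPKM, 8635 nt for Itgb3 and 1993 nt for Dcstamp. The annotated lengths are 5901 nt and 2664 nt, and at those the order of the low members was not examined.

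**Figure D3:**
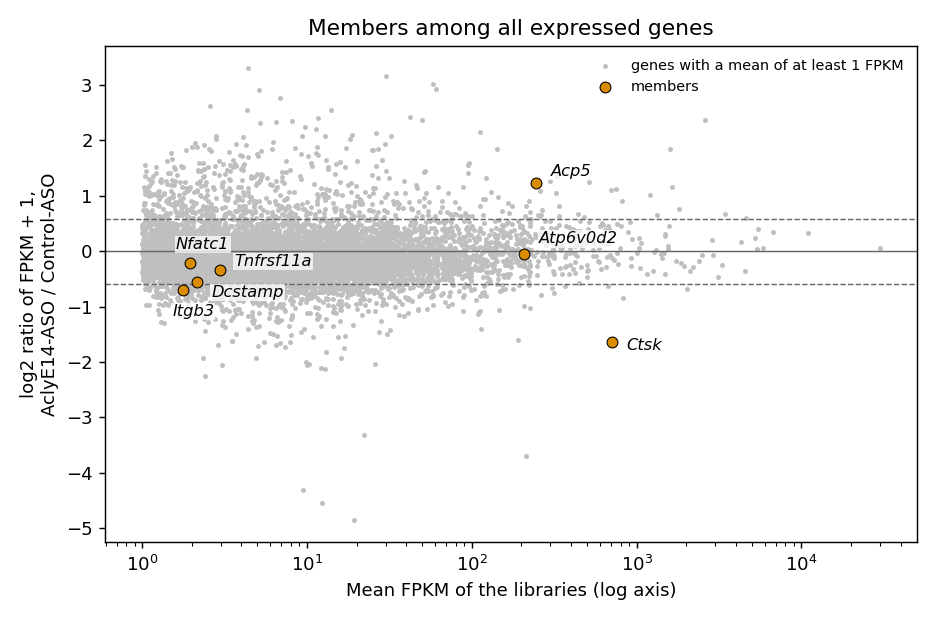
Log2 ratio, AclyE14-ASO over Control-ASO after adding 1 FPKM, plotted against mean FPKM on a log axis for the 8658 expressed genes (grey) and the 7 members among them (orange), with dashed lines at 1.5-fold. Ctsk at -1.65 lies under nearly every gene of its abundance and Acp5 at 1.23 near the upper edge, while Atp6v0d2 at -0.06 lies in the middle.

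The share of genes called in either direction was 15.1% among genes of 1 to 5 FPKM, where Tnfrsf11a, Nfatc1, Dcstamp and Itgb3 lie, and 16.6% among those of 100 FPKM or more. The genes nearest to Ctsk in the plane of both levels, by distance on log2(FPKM + 1), were Tnfrsf1b (528 FPKM with AclyE14-ASO and 822 FPKM with Control-ASO), Cd68 (590 and 1059 FPKM) and Lgmn (418 and 581 FPKM), at distances of 0.739, 0.794 and 0.928. None of them had a log2 ratio as low as that of Ctsk, which follows almost wholly from its rank among abundant genes given above. Acp5 had closer neighbours, Hilpda (351 and 165 FPKM), Cd83 (290 and 155 FPKM) and Tnfsf9 (273 and 155 FPKM), at 0.173, 0.259 and 0.342. With 1 library a condition this likeness covers 2 values only.

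Around the members, 8 lists of genes that act in osteoclast formation and resorption were examined. Of their 104 genes 85 reached a mean of 1 FPKM. Of these 14 were called higher and 11 lower, beside 7.03% and 8.48% over all expressed genes. Among the higher genes, Id1 and Sh3pxd2a reached that mean only through the AclyE14-ASO library. These counts describe the lists, and the lists' medians are to be read beside the -0.13 of all expressed genes.

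Acid secretion and proteolysis, the machinery closest to Ctsk and Atp6v0d2, had 7 of 18 genes lower and 3 higher, with a median of -0.33. When centred on the median gene 3 were lower and 3 higher. Over all expressed genes 8.48% were lower and 7.03% higher, and when centred 4.69% and 9.83%. The same shares stand beside the counts of pump genes below. Of the 7 other proton pump genes in the list 4 were lower, and Tcirg1, Atp6v0d1 and Atp6ap1 lay within 1.5-fold like Atp6v0d2, with log2 ratios of -0.19, -0.24 and -0.33. Over the 16 other measured genes with Atp6v or Atp6ap symbols, a set added after seeing the data, 6 were lower, Atp6v0e was higher and 9 lay between, and 2 were lower and 1 higher when centred on the median gene. Atp6v1a had 84.0 FPKM with AclyE14-ASO and 146 FPKM with Control-ASO, a ratio of 0.574 (0.560 to 0.589). Atp6v0a1 had 4.39 FPKM with AclyE14-ASO and 10.1 FPKM with Control-ASO. Atp6v1b2 and Atp6v1c1 had count ratios of 0.652 and 0.650. Clcn7, the lysosomal chloride and proton exchanger, was at 0.658, and Plekhm1, a vesicle transport adaptor, at 0.611. The counting intervals of Atp6v1b2, Atp6v1c1, Clcn7 and Plekhm1 held the 1.5-fold limit. Car2, the carbonic anhydrase that supplies protons to the pump, had 41 counts with AclyE14-ASO and 172 with Control-ASO, a ratio of 0.266 (0.184 to 0.376). Mmp9, a gelatinase of osteoclasts and activated macrophages, was higher, with 38.9 FPKM with AclyE14-ASO and 15.1 FPKM with Control-ASO (ratio 2.58, 2.38 to 2.80). Snx10, a sorting nexin needed for osteoclast acid secretion, was higher as well, at 27.0 FPKM with AclyE14-ASO and 13.0 FPKM with Control-ASO, and so was Ctsd, the aspartic protease cathepsin D, at 4241 and 2678 FPKM. Of the late osteoclast markers that were measured, Ctsk and Car2 were thus lower, Acp5 and Mmp9 higher, and Dcstamp and Atp6v0d2 within 1.5-fold.

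Upstream of the members, 3 of 22 measured genes in the lists of ligands and receptors, costimulation and calcineurin signalling were called, a share of 13.6% beside 15.5% over all expressed genes. Of 7 measured ligand and receptor genes only Tab2, an adaptor of the kinase TAK1 below TRAF6, was lower (13.5 FPKM with AclyE14-ASO and 22.4 FPKM with Control-ASO), and 0 were higher. That call was lost when log2 ratios were centred on the median gene, which left 0 lower. Csf1r, the M-CSF receptor, had 50.7 FPKM with AclyE14-ASO and 64.7 FPKM with Control-ASO, and its ligand gene Csf1 27.3 and 20.03 FPKM. Tnfsf11, the gene for RANKL itself, had 5 counts with AclyE14-ASO and 0 with Control-ASO, and it was picked out after its values were seen. Of 10 measured genes of immunoreceptor (ITAM) costimulation only Plcg2, the phospholipase that raises calcium, was lower (11.0 FPKM with AclyE14-ASO and 19.5 FPKM with Control-ASO). Tyrobp, the ITAM adaptor DAP12, had 1123 FPKM with AclyE14-ASO and 947 FPKM with Control-ASO, and its partner Trem2 107 and 79.2 FPKM. In the calcineurin list 1 of 5 measured genes was higher and 0 were lower. It was Rcan1, a calcineurin inhibitor that NFAT itself induces (84.2 FPKM with AclyE14-ASO and 47.9 FPKM with Control-ASO, ratio 1.76, 1.66 to 1.87).

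Transcription factors were examined in separate lists for those that restrain osteoclast formation and those that promote it. Of 6 measured restraining factors 2 were higher and 1 lower, beside 7.03% higher and 8.48% lower over all expressed genes. Bcl6, a repressor known in the mouse to act on Nfatc1, Ctsk and Dcstamp, had 2.56 FPKM from 243 counts with AclyE14-ASO and 10.4 FPKM from 1107 counts with Control-ASO (ratio 0.245, 0.212 to 0.281). The inhibitors of helix-loop-helix factors Id1, with 112 counts with AclyE14-ASO and 24 with Control-ASO, and Id3, with 343 and 165 counts, were higher. Id1, at 4.19 FPKM with AclyE14-ASO and 0.806 FPKM with Control-ASO, reached the mean of 1 FPKM only through the AclyE14-ASO library. Of 15 measured promoting factors 2 were higher and 0 lower, beside the same shares over all expressed genes. The higher ones were the AP-1 subunits Fosl1 (102 counts with AclyE14-ASO and 41 with Control-ASO) and Fosl2 (839 and 327 counts). There were 4 higher when centred on the median gene, beside 9.83% of all expressed genes, and 0 among factors with a mean of at least 5 FPKM. Exons of Fosl1 overlap Ccdc85b on the opposite strand, and counts summed over the pair gave a ratio of 2.20 (1.62 to 3.01). Mitf, a factor that acts on the Ctsk and Acp5 promoters, had 7.06 FPKM with AclyE14-ASO and 10.6 FPKM with Control-ASO, a log2 ratio of -0.52.

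In the fusion and podosome lists together 7 of 24 measured genes were called, 29.2% beside 15.5% over all expressed genes. In the fusion list 4 of 10 measured genes were higher and 0 lower. They were Itgam, Cd81 (203 counts with AclyE14-ASO and 58 with Control-ASO), Sirpa (20.4 and 11.8 FPKM) and the podosome scaffold gene Sh3pxd2a. Sh3pxd2a, at 1.52 FPKM with AclyE14-ASO and 0.598 FPKM with Control-ASO, reached the mean of 1 FPKM only through the AclyE14-ASO library. The share of 29.2% includes that gene. Itgam, with 3972 counts with AclyE14-ASO and 934 with Control-ASO, shares 3450 nt of exon with Gm49368 on its own strand. Gm49368 had 6 counts with AclyE14-ASO and 1834 with Control-ASO, and the summed ratio was 1.60 (1.53 to 1.68). In the podosome list 2 of 14 were higher and 1 lower. When centred on the median gene 4 were higher and 0 lower, beside 9.83% and 4.69% over all expressed genes. Src, the tyrosine kinase needed for the ruffled border, was lower (21.4 FPKM with AclyE14-ASO and 34.6 FPKM with Control-ASO). Rac1, a GTPase of actin assembly, was higher at 42.5 FPKM with AclyE14-ASO and 11.2 FPKM with Control-ASO. It shares 2309 nt of exon with Daglb on the opposite strand, and their summed counts had a ratio of 2.70 (2.56 to 2.85).

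**Figure D4:**
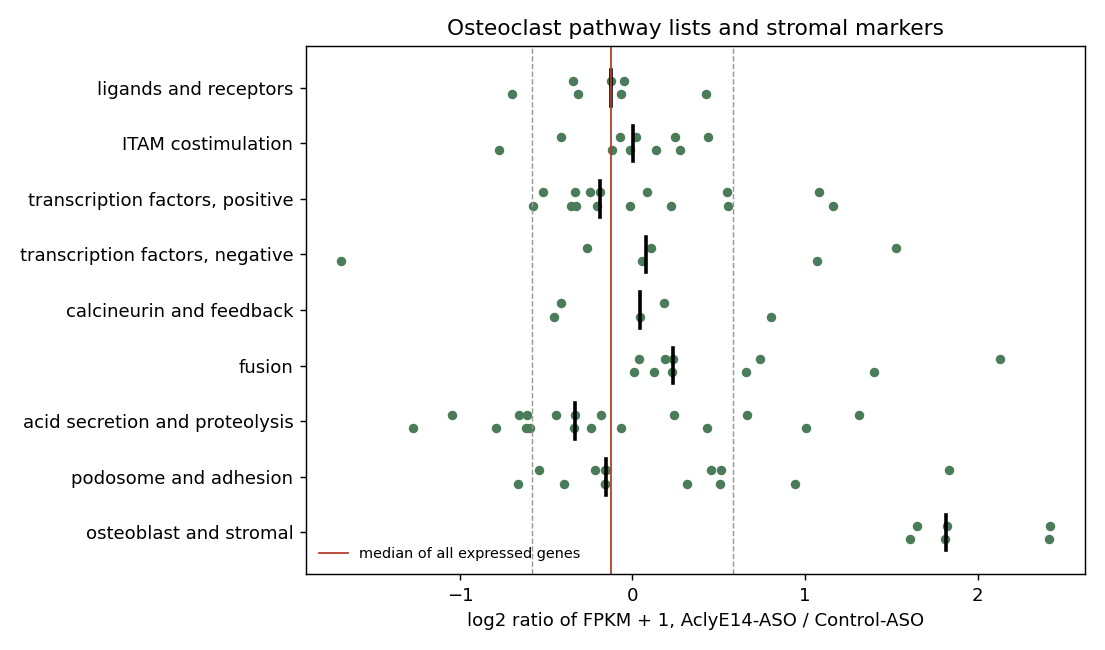
Log2 ratio, AclyE14-ASO over Control-ASO after adding 1 FPKM, for the measured genes of 8 osteoclast pathway lists and of the osteoblast and stromal markers (points), with each list's median as a black bar, the median of all expressed genes as a red line and 1.5-fold as dashed lines. The pathway medians lie between -0.33 and 0.23, and the stromal median at 1.82.

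The labelled cell type was checked against markers. All 10 macrophage markers reached 1 FPKM, with a summed level of 15424 FPKM with AclyE14-ASO and 12137 FPKM with Control-ASO, most of it Lyz2 (12276 and 9798 FPKM). Of these markers Itgam, Fcgr1 and Cd14 were higher and Cd68 was lower, beside 7.03% higher and 8.48% lower over all expressed genes. For Itgam, counts summed with Gm49368 gave a ratio of 1.60. The list's median log2 ratio was -0.0033. Osteoblast and stromal markers were higher with AclyE14-ASO where they were measured. Of 16, 6 were measured and all 6 were higher by 2-fold or more, beside 3.18% over all expressed genes. The 16 markers summed to 212 FPKM with AclyE14-ASO and 49.6 FPKM with Control-ASO. The osteoblast genes Sp7, Bglap and Ibsp had 0 counts in both libraries. The neutrophil markers summed to 44.0 FPKM with AclyE14-ASO and 22.0 FPKM with Control-ASO, nearly all of it S100a8, and Ly6g, Elane and Camp were at 0 in both. Of the dendritic cell markers only Itgax reached 1 FPKM, and none of the 9 lymphocyte markers did. The part of other cells in the ratios of Ctsk, Acp5 and the other members was not tested, and in bulk RNA fewer cells of a type and less RNA per cell cannot be told apart.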

How the data were processed

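Total RNA of 2 macrophage cultures was sequenced as mRNA libraries, and the authors deposited raw gene counts and FPKM values for both, per the file headers. The submitters' processing notes list mm10, HISAT2, edgeR and StringTie 1.3.0 with no role. The labels' protocols name a stranded and a further library kit, and do not say whether counting used the strand. For genes over 20 counts the FPKM worth of 1 count was 1.1148 to 1.1149 times as large with AclyE14-ASO, as the count totals give, so the deposited FPKM were scaled to those totals only. The gene length behind Ctsk was 1512 nt, as in the annotation, and that behind Acp5 1612 nt, against 2030 nt there.

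Symbols came from GENCODE M21 (GRCm38) for 34267 of 34745 identifiers. Log2 ratios used FPKM plus a pseudocount of 1, which understates the change of low genes. Count ratios have exact conditional binomial intervals. The members and lists were chosen with earlier results of these data known. The rule for named genes took all members, Acly, each list's 2 highest, 2 lowest and most abundant genes (not all are printed) and the 3 genes nearest to Ctsk and Acp5. Further list genes are printed because they passed 1.5-fold, a choice made on seeing the values. Alternatives were other pseudocounts, filters, thresholds and scalings. A gene of the lists is not reported here and was left out of their counts. Calculations were tested on simulated counts. R 4.3.3 with edgeR 4.0.16 gave the TMM factors, and the rest came from Python 3.11.15 with NumPy 2.4.6, pandas 2.3.3 and SciPy 1.17.1. Promoter sequences came from RefSeq.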

Additional observations from a re-analysis of the deposited data

How the results depend on the processing

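The directions of Ctsk and Acp5 held under all 5 alternatives tried, namely pseudocounts of 0.1 and 5, centring on the median gene, TMM rescaling and counts without a pseudocount. Centring and TMM gave log2 ratios of -1.52 and -1.55 for Ctsk, 1.36 and 1.33 for Acp5, and 0.073 and 0.046 for Atp6v0d2, whose sign turned. For Itgb3 pseudocounts of 0.1 and 5 gave -1.08 and -0.29, and counts alone -1.15. The members called lower numbered 1 at 2-fold, at a mean of at least 5 FPKM, with a pseudocount of 5 and when centred. At 4-fold 0 members were called higher and 0 lower.

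At 2-fold the lists had 0 higher genes for calcineurin, 2 for fusion and 1 for podosome, and 0 lower for ligands and receptors, ITAM costimulation and podosome and 2 for acid secretion. At a mean of at least 5 FPKM there were 0 higher promoting factors, 1 restraining factor, 2 fusion genes and 1 podosome gene. Centring gave 4 higher promoting factors, 4 higher and 0 lower podosome genes, 0 lower ligands and receptors and 3 lower acid secretion genes. Without a filter 2 ITAM genes were lower. Centring also turned the sign of the median of ligands and receptors, from -0.12 to 0.01. The causes of these shifts were not tested.

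No value without either library exists, since each condition has 1, and Ocstamp, Oscar and Calcr give no ratio. Depth limits Dcstamp most among the measured members, with 39 and 78 counts.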
